A study of Mus musculus with 6 samples.

Results

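The C1q/TNF-related protein genes encode a family of secreted proteins that resemble adiponectin. They were followed here in hearts of DNMTs-Tg and wild-type mice. The members were chosen by gene symbol, as all probe sets (groups of short probes that together report 1 transcript) annotated to 1 of the 9 genes C1qtnf1, C1qtnf2, C1qtnf3, C1qtnf4, C1qtnf5, C1qtnf6, C1qtnf7, C1qtnf9 and C1qtnf12. Of these, 8 had probe sets of their own, 14 in all, among 18193 genes so measured. C1qtnf5 had none, because its 1 probe set is annotated to the adjoining gene Mfrp as well. The family was picked with results of this comparison known, in which C1qtnf4 was among the largest decreases. The DNMTs-Tg against wild-type values of C1qtnf4 are therefore given as a description, without a test.

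DNMTs-Tg mice make 2 proteins from transgenes: DNMT3A2, the shorter form of a methyltransferase that adds new methyl groups to CpG sites, and DNMT3L, its catalytically inactive partner. Per the labels, they came from a cross of FVB-Tg(Ddx4-cre)1Dcas/J females with a male of a flox line, and both proteins are made in many somatic tissues for life, so that an effect in the heart need not arise there. The strain of the wild-type mice is not given in the sources used here. Hearts of 3 DNMTs-Tg mice (replicates 1, 5 and 6) and 3 wild-type mice (replicates 1, 4 and 6), all 8 weeks old, were each measured on 1 Affymetrix array, and the study asked which genes lose expression when both proteins are present. Values are log2 signals, and a difference is the DNMTs-Tg mean minus the wild-type mean. A probe set is called dim on an array where it did not exceed that array's 40th percentile, which was 4.64 to 4.72 (log2). This floor was set for the analysis and is not a measured background.

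Members of the family carry a globular C1q domain, usually behind a collagen-like stalk, and assemble into trimers and larger complexes. Many are made by fat and connective tissue cells, circulate, and have been studied in mice for effects on glucose and lipid metabolism. C1qtnf9 protein is the one best known for protection of the heart and vessels, and acts in part through the adiponectin receptor AdipoR1. C1qtnf4 protein is unusual in having tandem C1q domains and no collagen-like stalk. In whole hearts, fewer cells of a type and less RNA per cell cannot be told apart.

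Median log2 signals were 5.28 to 5.32. Dnmt3l had log2 signals of 12.19 to 12.38 in DNMTs-Tg hearts and 5.17 to 5.48 in wild-type hearts, as the genotype labels say. No probe set of Dnmt3a was called. Its probe set 1423066_at was higher without overlap (difference 1.02, limma adjusted p = 0.0563). The other Dnmt3a probe sets, 1423063_at, 1423064_at, 1423065_at and 1460324_at, overlapped, with differences of -0.28, -0.11, -0.09 and -0.28. Cardiomyocyte markers were bright in both genotypes: Myh6 probe set 1448826_at read 14.13 to 14.54 in DNMTs-Tg and 14.56 to 14.62 in wild-type hearts. The labels call 5 mice female and wild-type replicate 6 male. Xist probe set 1427263_at read 10.10 in wild-type replicate 4, against 4.52 to 4.96 on the other 5 arrays. The Y-linked Eif2s3y (probe set 1417210_at) read 3.32 in wild-type replicate 4, against 9.41 to 9.52 on the others. Wild-type replicate 1 and all 3 DNMTs-Tg mice thus went against their sex label, and values without wild-type replicate 4 are given beside the results for member genes not dim on all arrays. DNMTs-Tg replicate 1 stood apart in the marker lists described further on. The excess of the 3' over the 5' control probe set of Gapdh on the log2 scale, which grows as RNA breaks down, was 0.66 ± 0.12 (SD, n = 3) on DNMTs-Tg arrays and 0.43 ± 0.06 (SD, n = 3) on wild-type arrays. The same excess for Actb was 1.12 ± 0.25 (SD, n = 3) on DNMTs-Tg arrays and 1.15 ± 0.09 (SD, n = 3) on wild-type arrays. The part of RNA quality in the results below was not tested.

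Promoter sequences were at hand for 6 members, C1qtnf2, C1qtnf3, C1qtnf5, C1qtnf6, C1qtnf7 and C1qtnf9, from RefSeq on GRCm38.p6, each of 300 bases (250 before the annotated start and 50 after it). The CG dinucleotide, the site that DNMT3A methylates, was counted in each. It reads the same on both strands. C1qtnf2 held 18 CG, which 29.7% of 32851 such mouse promoters matched or exceeded, and C1qtnf9 held 2, matched or exceeded by 85.9%. C1qtnf6 held 10, C1qtnf7 held 8, C1qtnf3 held 7 and C1qtnf5 held 6, where the median of all promoters was 7. The richest and the poorest of the 6 are shown 5′ to 3′ with CG in capitals. They are C1qtnf2 at chr11:43474056-43474355 (plus strand) and C1qtnf9 at chr14:60767884-60768183 (plus strand). Whether the transgenes act on them was not tested. No promoter sequence was at hand for C1qtnf1, C1qtnf4 or C1qtnf12, so these counts say nothing of C1qtnf4 and C1qtnf12. Methylation was not analysed here.
C1qtnf2: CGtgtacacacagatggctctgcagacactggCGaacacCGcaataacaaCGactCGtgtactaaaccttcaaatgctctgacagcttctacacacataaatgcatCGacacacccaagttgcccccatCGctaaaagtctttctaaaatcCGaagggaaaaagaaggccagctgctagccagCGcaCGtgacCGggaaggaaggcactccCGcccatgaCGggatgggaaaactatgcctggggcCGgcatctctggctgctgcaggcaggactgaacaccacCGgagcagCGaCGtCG
C1qtnf9: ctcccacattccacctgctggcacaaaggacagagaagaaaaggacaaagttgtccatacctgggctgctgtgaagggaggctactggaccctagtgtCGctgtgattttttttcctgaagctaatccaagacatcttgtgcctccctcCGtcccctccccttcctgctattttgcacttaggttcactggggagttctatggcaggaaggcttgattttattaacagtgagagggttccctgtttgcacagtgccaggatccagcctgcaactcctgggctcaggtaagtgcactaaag

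C1qtnf4, whose protein lowers food intake when it acts in the mouse brain, was the member with the largest decrease. Probe set 1417050_at read 4.59, 4.32 and 4.71 in DNMTs-Tg replicates 1, 5 and 6, against 7.13, 7.59 and 7.22 in wild-type replicates 1, 4 and 6. All 3 DNMTs-Tg values were dim and all 3 wild-type values were not, and a gap of 2.41 lay between the highest DNMTs-Tg and the lowest wild-type value. The means were 4.54 ± 0.20 in DNMTs-Tg and 7.31 ± 0.25 in wild-type hearts (SD, n = 3 each), a difference of -2.77. DNMTs-Tg replicate 6, at 4.71, lay just under its floor of 4.72. Because the DNMTs-Tg signals were dim, the floor of each array was put in their place, which gave a decrease of 6.16-fold between the group means. This is a bound with regard to the dim signals only, and does not cover the spread between mice. With 1 array left out the bound ran from 5.60 without wild-type replicate 4, the array of female type, to 6.57 without wild-type replicate 1. Without DNMTs-Tg replicate 1 it was 6.07. A second probe set, 1441648_at, read 2.93, 3.15 and 3.27 in DNMTs-Tg and 3.04, 3.13 and 3.22 in wild-type hearts. It was dim on all 6 arrays and so gave no measure of the gene in either genotype.

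**Figure D1:**
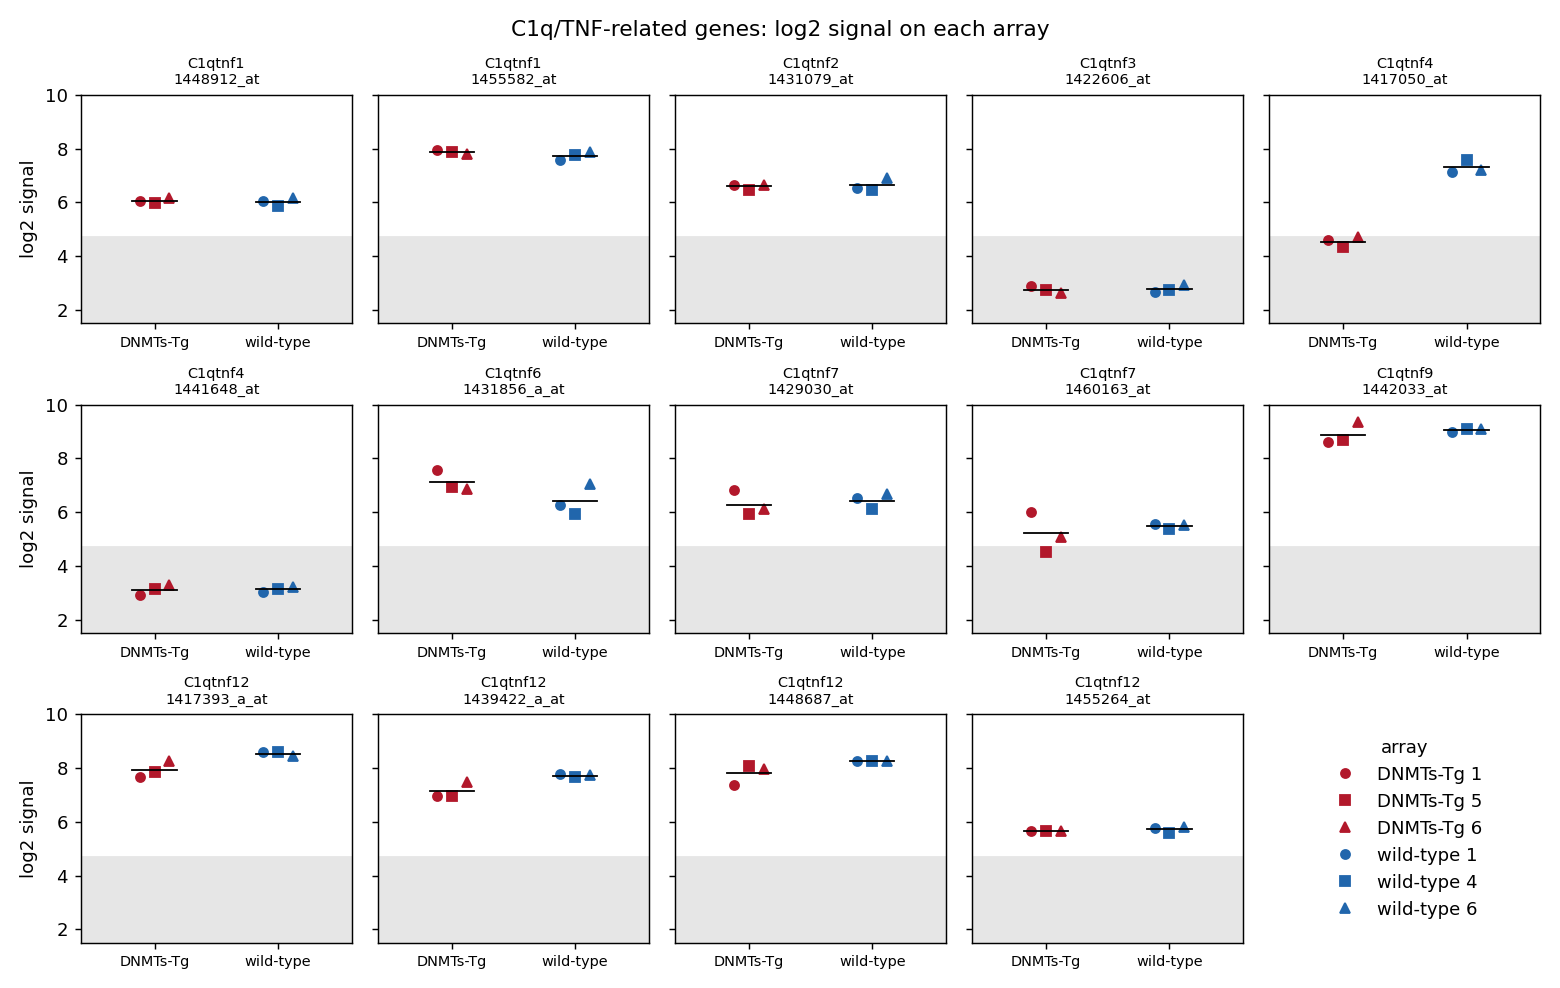
Log2 signal (vertical axis) of the 14 probe sets on each array, with DNMTs-Tg left of wild-type, symbols for single arrays, lines for group means, and grey for signals below the mean 40th percentile. C1qtnf4 probe set 1417050_at lies in the grey range in DNMTs-Tg hearts (4.32 to 4.71) and above it in wild-type hearts (7.13 to 7.59).

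With C1qtnf4 1417050_at left aside, since its decrease was known when the family was picked, 0 of the other 13 probe sets were called lower with limma at an adjusted p under 0.05, against 1.31% of all 45037 probe sets tested. Of these 13, 0 were called higher, against 0.799%. Both counts were 0 without wild-type replicate 4 and without DNMTs-Tg replicate 1 as well. The smallest adjusted p among the 13 was 0.101 (limma). The groups did not overlap for 3 of the 13, all of C1qtnf12 and lower in DNMTs-Tg, against 14.9% of all probe sets in that direction, and for 0 in the other, against 11.7%. An unadjusted limma p under 0.05 was reached by the same 3, against 10.6% of all in that direction, and by 1 that was higher, against 8.58%. The median difference was -0.060 over the 13 probe sets and -0.0247 over all probe sets tested. On the filter that keeps probe sets above the 40th percentile on at least 3 arrays, 12 of the 14 passed. The 2 that failed, C1qtnf3 1422606_at and C1qtnf4 1441648_at, were dim on all 6 arrays.

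**Figure D2:**
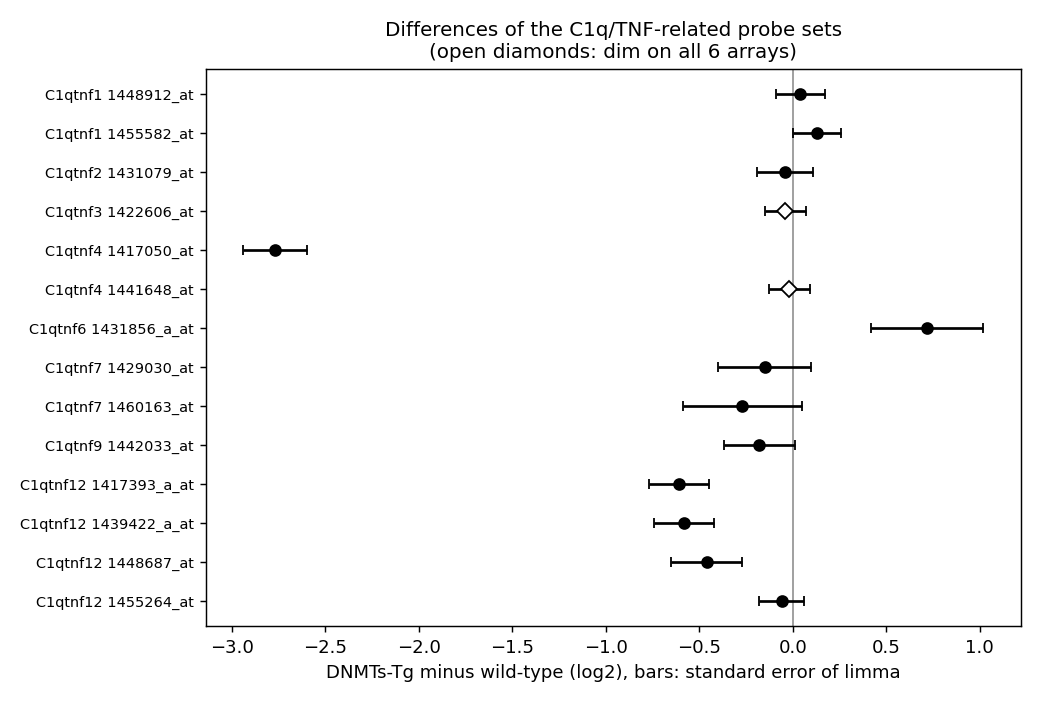
DNMTs-Tg minus wild-type difference in log2 signal (horizontal axis) of the 14 probe sets, with the standard error from limma as bars and open diamonds for probe sets dim on all arrays. C1qtnf4 1417050_at lies at -2.77 and C1qtnf6 at 0.72, while 3 of the 4 C1qtnf12 probe sets lie between -0.61 and -0.46.

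C1qtnf12 encodes adipolin, an insulin-sensitising protein that furin cleaves. It had 4 probe sets, and 3 of them were lower in every DNMTs-Tg heart than in any wild-type heart, without passing the test. Probe set 1417393_a_at read 7.68, 7.87 and 8.25 in DNMTs-Tg replicates 1, 5 and 6, against 8.59, 8.59 and 8.45 in wild-type replicates 1, 4 and 6. The wild-type values were close together and the DNMTs-Tg values spread below them, with replicate 6 nearest. Its difference was -0.61 ± 0.16 (SE, limma adjusted p = 0.101, unadjusted p = 0.00523). Probe set 1439422_a_at read 6.98, 6.96 and 7.48 in DNMTs-Tg and 7.77, 7.66 and 7.74 in wild-type hearts. Its difference was -0.58 ± 0.16 (SE, limma adjusted p = 0.113), again with replicate 6 as the highest DNMTs-Tg value. Probe set 1448687_at read 7.38, 8.09 and 7.96 in DNMTs-Tg and 8.28, 8.27 and 8.27 in wild-type hearts. Here DNMTs-Tg replicate 1 was the lowest, and the difference was -0.46 ± 0.19 (SE, limma adjusted p = 0.227).

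The fourth C1qtnf12 probe set, 1455264_at, read 5.67, 5.68 and 5.67 in DNMTs-Tg and 5.78, 5.60 and 5.82 in wild-type hearts. Its groups overlapped, with a difference of -0.06 and a 95% interval of -0.34 to 0.22. The intervals of the other 3 were -0.98 to -0.24, -0.96 to -0.21 and -0.89 to -0.04, each overlapping that of the fourth. Without DNMTs-Tg replicate 6, 1417393_a_at (-0.76, limma adjusted p = 0.0233) and 1439422_a_at (-0.75, limma adjusted p = 0.0204) passed the threshold. Without DNMTs-Tg replicate 1 the difference of 1448687_at was -0.25. Without wild-type replicate 4 the differences were -0.58 for 1417393_a_at (limma adjusted p = 0.282), -0.61 for 1439422_a_at (0.268), -0.47 for 1448687_at (0.417) and -0.13 for 1455264_at (0.722). Over the 6 fits with 1 array left out, the adjusted p of 1417393_a_at ranged from 0.0233 to 0.282 and that of 1439422_a_at from 0.0204 to 0.296.

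C1qtnf6 protein dampens the alternative complement pathway in mice and is made by stromal cells. It was the member with the largest positive difference. Probe set 1431856_a_at read 7.57, 6.95 and 6.87 in DNMTs-Tg replicates 1, 5 and 6, against 6.25, 5.93 and 7.04 in wild-type replicates 1, 4 and 6. Wild-type replicate 6 lay above DNMTs-Tg replicates 5 and 6, so the groups overlapped. Wild-type replicate 4, the array of female type, had the lowest value. The difference was 0.72 ± 0.30 (SE) and did not pass (limma adjusted p = 0.238, unadjusted p = 0.041). Without wild-type replicate 6 it was 1.04 (limma adjusted p = 0.156), without wild-type replicate 4 it was 0.48 (limma adjusted p = 0.514) and without DNMTs-Tg replicate 1 it was 0.50 (limma adjusted p = 0.402).

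Fibroblast markers, as the mean log2 signal of 10 genes relative to wild-type, stood at 1.14, 0.21 and 0.13 in DNMTs-Tg replicates 1, 5 and 6, against -0.17, -0.08 and 0.26 in wild-type replicates 1, 4 and 6. In each genotype the array with the highest C1qtnf6 signal was also the one with the highest fibroblast value. The match was not particular to fibroblasts. Macrophage markers were also highest on these arrays, at 1.42 in DNMTs-Tg replicate 1 and 0.09 in wild-type replicate 6. So were the other genes with C1q domains, at 0.21 and 0.06. Of the 19 fibroblast probe sets 0 passed the limma threshold and 16 had a positive difference. By unadjusted limma p, 5 with a positive and 1 with a negative difference were under 0.05, against 8.58% and 10.6% of all probe sets. The median difference of the 19 was 0.36. Col1a2 probe set 1450857_a_at, for a chain of fibrillar collagen, differed by 1.01 (limma adjusted p = 0.157) and Postn, for a matrix protein of activated fibroblasts, by 1.84 (limma adjusted p = 0.168). The other direction was shown by Dpt, for the matrix protein dermatopontin, at -0.33 (limma adjusted p = 0.250, groups without overlap), Ddr2 1455688_at at -0.22 (0.580) and Tcf21 1417447_at at -0.10 (0.744). None of the 10 fibroblast genes was dim on all arrays. The part of these cells in the C1qtnf6 values was not tested.

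C1qtnf7, which affects glucose tolerance in obese mice, varied most between DNMTs-Tg hearts. Probe set 1460163_at read 6.02, 4.53 and 5.08 in DNMTs-Tg and 5.54, 5.39 and 5.52 in wild-type hearts. DNMTs-Tg replicate 1 lay above every wild-type value and replicates 5 and 6 below them, with SDs of 0.75 in DNMTs-Tg and 0.08 in wild-type hearts. The replicate 5 value of 4.53 was dim, below that array's floor of 4.70, so the DNMTs-Tg SD and the difference rest in part on a dim signal. Probe set 1429030_at read 6.81, 5.92 and 6.12 in DNMTs-Tg and 6.53, 6.10 and 6.66 in wild-type hearts, with replicate 1 again the highest. The differences were -0.27 (95% interval -1.02 to 0.47) and -0.15 (-0.72 to 0.42), and neither passed (limma adjusted p = 0.684 and 0.785). Without DNMTs-Tg replicate 1 they were -0.68 (limma adjusted p = 0.0871) and -0.41 (limma adjusted p = 0.292), and without DNMTs-Tg replicate 5 they were 0.06 and 0.03. Without wild-type replicate 4 they were -0.32 (limma adjusted p = 0.755) and -0.31 (0.637).

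C1qtnf9 had 1 probe set, 1442033_at. It read 8.60, 8.70 and 9.35 in DNMTs-Tg replicates 1, 5 and 6, against 9.0, 9.08 and 9.11 in wild-type replicates 1, 4 and 6. The wild-type values lay within the range of the DNMTs-Tg values, of which replicates 1 and 5 were lower and replicate 6 higher. The difference was -0.18 ± 0.19 (SE), with a 95% interval of -0.63 to 0.27 (limma adjusted p = 0.660). Without DNMTs-Tg replicate 6 it was -0.41, without DNMTs-Tg replicate 1 it was -0.04 and without wild-type replicate 4 it was -0.17. As in 2 of the C1qtnf12 probe sets, replicate 6 was the DNMTs-Tg array with the highest signal.

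**Figure D3:**
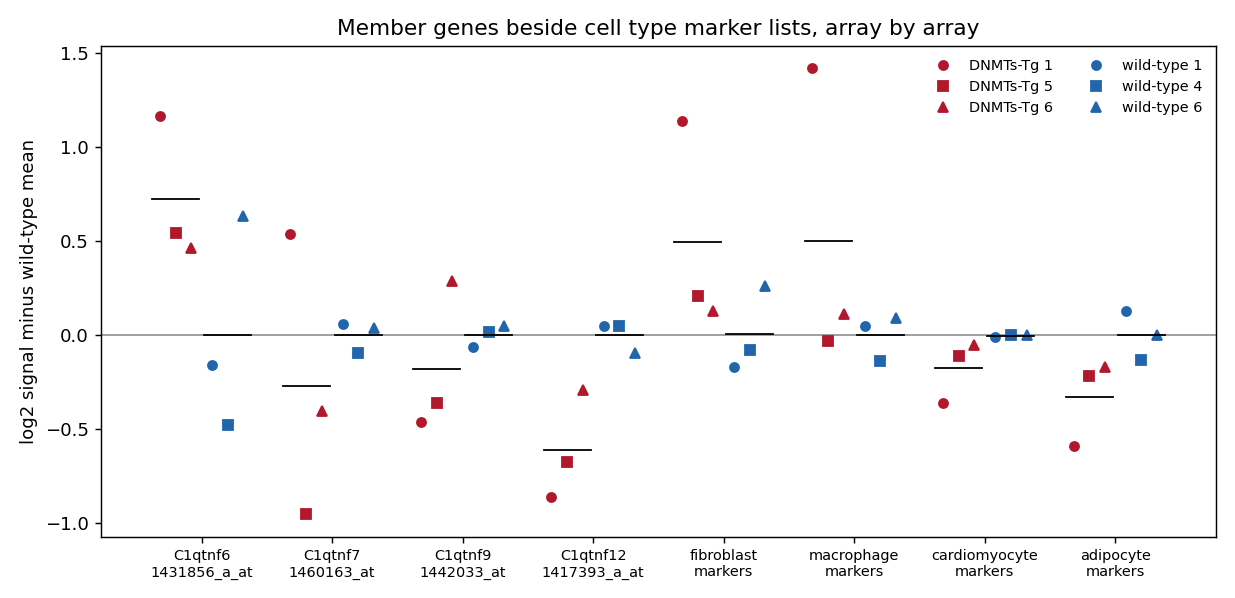
Log2 signal minus the wild-type mean (vertical axis) on each array for 4 member probe sets and for the mean of 4 marker lists, with DNMTs-Tg left of wild-type, symbols for arrays and lines for group means. DNMTs-Tg replicate 1 has the highest values for C1qtnf6 and for the fibroblast (1.14) and macrophage (1.42) lists, and the lowest for the C1qtnf12 probe set and the cardiomyocyte list (-0.36).

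C1qtnf1, a blood-borne family member that limits ischemic injury in mouse hearts, had closely matching values in both genotypes. Probe set 1455582_at read 7.93, 7.86 and 7.80 in DNMTs-Tg and 7.56, 7.77 and 7.87 in wild-type hearts, and the groups overlapped (difference 0.13, 95% interval -0.16 to 0.42, limma adjusted p = 0.617). Probe set 1448912_at read 6.05, 5.99 and 6.15 in DNMTs-Tg and 6.04, 5.87 and 6.15 in wild-type hearts (difference 0.04, 95% interval -0.25 to 0.34, limma adjusted p = 0.892). Without wild-type replicate 4 the differences were 0.15 and -0.04, so the sign of the second turned (limma adjusted p = 0.719 and 0.938).

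C1qtnf2, which promotes fatty acid oxidation in cultured muscle cells, read 6.65, 6.47 and 6.65 in DNMTs-Tg and 6.55, 6.44 and 6.90 in wild-type hearts. The groups overlapped, with wild-type replicate 6 the highest (difference -0.04, 95% interval -0.39 to 0.31, limma adjusted p = 0.917). Without wild-type replicate 4 the difference was -0.13 (limma adjusted p = 0.765). This is the member whose promoter, printed above, held the most CG of the 6. C1qtnf3, a protein of cartilage and fat, read 2.63 to 2.88 in DNMTs-Tg and 2.67 to 2.93 in wild-type hearts, dim on every array. The probe set shared by C1qtnf5 and Mfrp, 1424762_at, whose genes are joined on 1 transcript, read 7.82, 7.62 and 7.38 in DNMTs-Tg and 7.57, 7.63 and 7.66 in wild-type hearts. Its difference was -0.01 (limma adjusted p = 0.977) and cannot be assigned to either gene.

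The measured genes on both sides of C1qtnf4 on chromosome 2 were compared with it. RefSeq places Fnbp4 and Mtch2 before it and the genes Ndufs3 and Kbtbd4 after it. They had 11 probe sets, of which 0 passed the limma threshold and 5 were dim on all 6 arrays. The groups did not overlap for 3 that were lower, against 14.9% of all probe sets, and for 1 that was higher, against 11.7%. Of the 3 lower, Mtch2 1437805_at was dim on every array (2.33 to 2.43 in DNMTs-Tg and 2.48 to 2.63 in wild-type hearts). Ndufs3, for a core subunit of respiratory complex I, read 12.49, 12.86 and 12.93 in DNMTs-Tg and 13.17, 13.19 and 13.14 in wild-type hearts (difference -0.41, limma adjusted p = 0.132). Kbtbd4, for a substrate adaptor of a ubiquitin ligase, read 7.59, 8.04 and 8.04 in DNMTs-Tg and 8.09, 8.28 and 8.29 in wild-type hearts (difference -0.33, limma adjusted p = 0.293). Both were lower in every DNMTs-Tg heart, with replicate 1 the lowest, by far less than C1qtnf4. Mtch2, a protein of the outer mitochondrial membrane, had its brightest probe set 1438843_x_at at 11.14, 11.30 and 11.26 in DNMTs-Tg and 11.18, 11.33 and 11.19 in wild-type hearts, with overlap. Fnbp4 probe set 1423191_at was higher, at 6.04, 6.15 and 5.88 in DNMTs-Tg and 5.55, 5.50 and 5.78 in wild-type hearts (difference 0.42, limma adjusted p = 0.158).

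**Figure D4:**
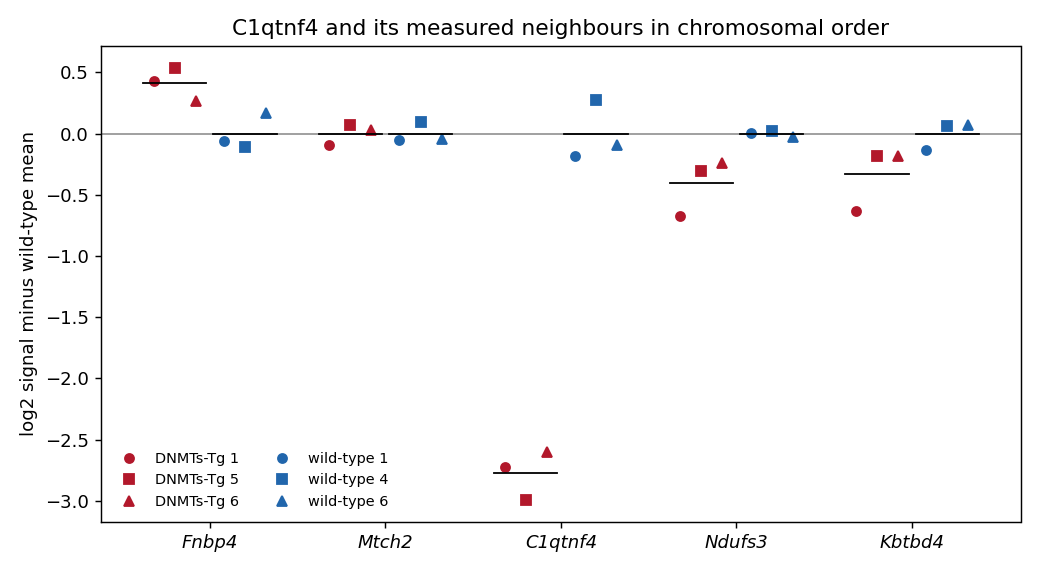
Log2 signal minus the wild-type mean (vertical axis) on each array for C1qtnf4 and for the brightest probe set of each measured neighbour in chromosomal order, with DNMTs-Tg left of wild-type, symbols for arrays and lines for group means. C1qtnf4 has a mean of -2.77 in DNMTs-Tg hearts, while the neighbours lie between -0.41 (Ndufs3) and 0.42 (Fnbp4).

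The probe sets whose profile over the 6 arrays was most like that of C1qtnf4 were found by the root mean square difference between profiles, each taken relative to its wild-type mean, among 32543 named probe sets. They were those of Apeh, an acylpeptide hydrolase (0.171 log2), Dcaf12l1 (0.201), the dihydrodiol dehydrogenase gene Dhdh (0.296), Pm20d1, a secreted enzyme of N-acyl amino acids (0.336), and Retnla, a resistin-like cytokine (0.369). Pm20d1 read 5.78, 6.00 and 5.60 in DNMTs-Tg and 8.37, 8.49 and 7.98 in wild-type hearts. Retnla read 6.39, 6.24 and 7.22 in DNMTs-Tg and 8.99, 9.04 and 8.99 in wild-type hearts. Dcaf12l1 (2.24 to 2.77) and Dhdh (4.26 to 4.39) were dim on all 3 DNMTs-Tg arrays and above the floor in wild-type hearts. Large decreases in these 5 follow from the measure, and since C1qtnf4 itself was dim in DNMTs-Tg hearts, their order has no weight. For C1qtnf9 the nearest profiles were those of Sdhd and Cavin2 (0.036 each), Klhl8 (0.047), Msl2 (0.056) and Minar1 (0.057), the last dim on all arrays. In each of the 5 DNMTs-Tg replicate 6 was the highest of the 6 arrays, as for C1qtnf9, which follows from the choice by profile.

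Receptors and effectors of the adiponectin type were measured by 47 probe sets of 18 genes, of which 1 fell and 0 rose at the limma threshold over all probe sets tested, with a median difference of 0.07. Among all probe sets 1.31% were called lower and 0.799% higher. An unadjusted limma p under 0.05 was reached by 6 with a positive and 4 with a negative difference, against 8.58% and 10.6% of all probe sets. The 1 that fell was Prkab1 probe set 1424119_at, for a regulatory subunit of the energy sensor AMPK. It read 8.30, 8.51 and 8.26 in DNMTs-Tg and 9.37, 8.90 and 9.22 in wild-type hearts (difference -0.80, limma adjusted p = 0.0401), without overlap. The call ended without DNMTs-Tg replicate 5 (limma adjusted p = 0.105) and without wild-type replicate 1 (0.172), 4 (0.0678) or 6 (0.163). With the label number added as a block it ended too (limma adjusted p = 0.296). The other Prkab1 probe set, 1452457_a_at, pointed the same way (-0.63, limma adjusted p = 0.0850). Other AMPK subunits went both ways, and none passed. Prkaa2 1434766_at differed by -0.29 without overlap (limma adjusted p = 0.197), Prkab2 1435874_at by -0.25 (0.65) and Prkag1 1417690_at by -0.27 (0.388). Prkag2, for another regulatory subunit, had the largest positive differences of the list. Its probe set 1423831_at read 10.28, 9.03 and 8.27 in DNMTs-Tg and 7.71, 7.68 and 7.72 in wild-type hearts, without overlap and with DNMTs-Tg replicate 1 the highest (difference 1.49, limma adjusted p = 0.117). Prkag2 probe set 1451140_s_at differed by 1.46 (limma adjusted p = 0.145), 1423832_at was at 7.95, 6.44 and 5.20 in DNMTs-Tg and 5.17, 4.58 and 5.34 in wild-type hearts (limma adjusted p = 0.221), and 1431263_at was dim on all arrays. Prkaa1, for a catalytic subunit, differed by 0.51 without overlap (limma adjusted p = 0.113). Adipor1, through which C1qtnf9 protein signals, had probe set 1451311_a_at at 10.83, 10.77 and 11.02 in DNMTs-Tg and 10.79, 10.73 and 10.84 in wild-type hearts, with overlap (difference 0.09, limma adjusted p = 0.702). Adipor2 probe set 1434329_s_at differed by 0.32 (limma adjusted p = 0.186). T-cadherin, the adiponectin-binding protein encoded by Cdh13, had probe set 1454015_a_at at 6.58, 6.97 and 6.67 in DNMTs-Tg and 7.14, 7.43 and 7.44 in wild-type hearts (difference -0.60, limma adjusted p = 0.0944). The brighter Cdh13 probe sets 1423551_at (-0.48, limma adjusted p = 0.281) and 1434115_at (-0.20, 0.597) overlapped. Cdh13 1431824_at (0.26) was dim on all arrays. Acaca probe set 1434185_at, for an acetyl-CoA carboxylase that AMPK phosphorylates, differed by 0.63 (limma adjusted p = 0.0980).

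Other genes with C1q domains were measured by 33 probe sets of 19 genes, of which 0 passed the threshold, with a median difference of 0.04. An unadjusted limma p under 0.05 was reached by 3 with a positive and 5 with a negative difference, against 8.58% and 10.6% of all probe sets. The smallest p was that of Caprin2, an RNA-binding protein, with 5.30, 5.47 and 5.91 in DNMTs-Tg and 6.24, 6.55 and 6.50 in wild-type hearts (difference -0.87, limma adjusted p = 0.0538). Adiponectin itself, Adipoq, read 2.96, 3.54 and 3.37 in DNMTs-Tg and 5.60, 4.00 and 4.99 in wild-type hearts. It was dim on all 3 DNMTs-Tg arrays and in wild-type replicate 4, so no bound on the decrease is given, and the probe set did not pass (limma adjusted p = 0.0722). The largest positive differences were those of Col8a1, for a short-chain collagen. Its brightest probe set 1455627_at read 12.39, 10.43 and 9.51 in DNMTs-Tg and 9.17, 8.65 and 9.57 in wild-type hearts, with overlap and with DNMTs-Tg replicate 1 far above the rest (difference 1.64, limma adjusted p = 0.212). Emilin1 probe set 1416414_at, for an elastic fibre protein, differed by 0.69 without overlap (limma adjusted p = 0.215). The dimmer Emilin1 probe set 1431834_a_at differed by 0.23 with overlap (limma adjusted p = 0.607). The genes of the complement C1q chains showed DNMTs-Tg replicate 1 apart from the rest. C1qa read 10.84, 9.48 and 9.51 in DNMTs-Tg and 9.54, 9.59 and 9.59 in wild-type hearts.

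Adipocyte markers bear on a family made in part by fat, and 6 of 9 were measured. None of their 6 probe sets passed the limma threshold, all 6 differences were negative with a median of -0.09, and Cidec, Lep and Ucp1 were dim on all arrays. The mean of the list stood at -0.59, -0.22 and -0.17 in DNMTs-Tg replicates 1, 5 and 6 and between -0.13 and 0.13 in wild-type hearts. Adipoq, dim in every DNMTs-Tg heart, weighed most in this mean, and without it the mean of the other 5 genes stood at -0.33, 0.00 and 0.09 in DNMTs-Tg replicates 1, 5 and 6, against 0.01, 0.02 and -0.03 in wild-type replicates 1, 4 and 6. Macrophage markers stood at 1.42, -0.03 and 0.11 in DNMTs-Tg replicates 1, 5 and 6 and between -0.14 and 0.09 in wild-type hearts. Of their 14 probe sets 1, of Ccr2, was called higher, against 0.799% of all probe sets. That probe set, 1421188_at, was dim on all 3 wild-type arrays. Ccr2 1421186_at was higher without overlap but not called (1.44, limma adjusted p = 0.0592), and Ccr2 1460067_at overlapped (0.09). Cardiomyocyte markers stood at -0.36, -0.11 and -0.05 in DNMTs-Tg and between -0.01 and 0.00 in wild-type hearts, with 0 of 15 probe sets called. Endothelial markers stood at 0.06, 0.11 and 0.34 in DNMTs-Tg and between -0.03 and 0.02 in wild-type hearts. Of their 7 probe sets 1, of Vwf, was called higher, against 0.799% of all probe sets. Vwf, with a difference of 1.39, weighed most in this mean, and the median over the 7 was -0.05. By their brightest probe sets Cdh5 (0.10) and Pecam1 (0.07) were positive, and Emcn (-0.19), Kdr (-0.11) and Tek (-0.24) negative. Smooth muscle markers stood at 0.00, -0.61 and -0.44 in DNMTs-Tg and between -0.27 and 0.15 in wild-type hearts, with 0 of 7 called. The Ccr2 call ended without wild-type replicate 1 (limma adjusted p = 0.0555), and the Vwf call without DNMTs-Tg replicate 5 (0.0745) and without wild-type replicate 1 (0.0605) or 4 (0.0691). Both calls also ended with the label number added as a block (limma adjusted p = 0.181 for Ccr2 and 0.169 for Vwf). The part of these cell types in the member values was not tested.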

How the data were processed

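Per the labels' protocols, total RNA of frozen hearts was labelled with biotin by in vitro transcription for Affymetrix arrays. The deposited table holds a value for each probe set on each array, taken as log2 signals that the authors had normalized to a common scale, since they lay between 2.06 and 14.74 with near-equal medians. Which background correction, normalization and software they used is not given in the sources. The values were used as deposited, without detection calls. Of 45101 probe sets, 64 controls were left out and 45037 tested with none removed for low signal. The platform annotation gave 34945 of them 1 symbol, 932 several and 9160 none, and 34741 were matched by gene identifier to RefSeq symbols.

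All tests were 2-sided and used limma 3.58.1 under R 4.3.3 (a linear model per probe set and trended eBayes), with Benjamini-Hochberg adjustment over all 45037 probe sets and a threshold of 0.05. The steps were run on simulated data with independent noise for each probe set. Shifts shared by a whole array were not simulated, so this run cannot tell how they affect the calls. Intervals are unadjusted. Replicates are single mice, and 3 per group limits the precision. A list value is the mean over its genes, each by its brightest probe set.

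The members and lists were chosen with earlier results of these data known. Besides all members, the text names listed genes that were called or had the smallest p, the 2 nearest measured genes on each side of C1qtnf4, and the 5 probe sets most like C1qtnf4 and C1qtnf9. Adipor1, Adipor2, C1qa, Myh6, Prkag2, Prkaa1, Prkaa2, Prkab2, Prkag1, Col8a1, Emilin1, Dpt, Ddr2, Tcf21, Cdh5, Pecam1, Emcn, Kdr and Tek were named, and the adipocyte mean without Adipoq was added, after the values were seen. Alternatives were other scalings, a filter, weights per array, other variance models, a block by label number, and leaving out each array.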

Additional observations from a re-analysis of the deposited data

How the results depend on the processing

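C1qtnf4 1417050_at was left aside here too, since its decrease was known when the family was picked. Of the other C1qtnf probe sets, 0 were called lower under quantile normalization, a common median, the filter, eBayes without trend or robust eBayes. The count was also 0 with the label number as a replicate block. With array weights, C1qtnf12 1417393_a_at and 1439422_a_at were called lower. With 1 array left out, these C1qtnf12 probe sets were called lower without DNMTs-Tg replicate 6, and 0 were in the other such fits. The count called higher was 0 in all of these fits. The block left 1 residual degree of freedom. The deviations of same-numbered arrays from their group means had correlations of -0.031 for number 1 and -0.069 for number 6. With 3 arrays per group these values cannot tell whether the numbers mark a litter or batch. What a shared number means is not given in the sources used here. Over all probe sets, the main fit called 592 lower (1.31%) and 360 higher (0.799%). With array weights these were 2950 and 2522, with the block 5 and 2, and with 1 array left out 113 to 1175 and 54 to 1254, the lowest without wild-type replicate 1 and the highest without DNMTs-Tg replicate 6. The cause of these shifts was not tested. C1qtnf4 1417050_at differed by -2.86 to -2.63 with 1 array left out and by -2.52 with the block. The C1qtnf12 probe sets 1417393_a_at (-0.64, limma adjusted p = 0.00943) and 1439422_a_at (-0.69, limma adjusted p = 0.0102) passed with array weights. The same weights gave -0.26 for C1qtnf12 1448687_at (limma adjusted p = 0.206), -0.77 for C1qtnf7 1460163_at (0.0557) and -0.41 for C1qtnf7 1429030_at (0.170). Signs changed for small differences. C1qtnf1 1448912_at was at -0.0008 with the block and, with 1 array left out, ran from -0.04 to 0.11. C1qtnf3 1422606_at was at 0.04 under quantile normalization and ran from -0.11 to 0.04. C1qtnf4 1441648_at was at 0.04 under quantile normalization and at 0.03 with array weights, and ran from -0.09 to 0.07. C1qtnf7 1460163_at was at 0.02 with the block and ran from -0.68 to 0.06, C1qtnf7 1429030_at ran from -0.41 to 0.03, and C1qtnf2 ran from -0.13 to 0.10. No detection calls were used, so dim signals set only bounds.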
